A study of Homo sapiens with 6 samples.

Results

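The tumour necrosis factor (TNF) superfamily was described across the libraries of an IGF2BP2 knockdown in 786-O cells. Members were taken by gene symbol: all genes whose symbol begins with TNFSF or TNFRSF, and the members known by other names, namely TNF, LTA, LTB, FASLG, CD40LG, CD70, FAS, LTBR, CD27, CD40, NGFR, EDAR and EDA2R. The rule found 46 of the 20020 genes in the table, of which 18 encode ligands, 8 encode receptors with a death domain, 4 encode decoy receptors and 16 encode receptors that bind TRAF adaptors without a death domain.

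Polyadenylated RNA was sequenced from 786-O, an established line from a human clear cell renal carcinoma, grown in RPMI1640 with serum. The labels give 3 samples with the genotype shIGF2BP2, a short hairpin RNA against the mRNA of the RNA-binding protein IGF2BP2, and 3 samples with the genotype puro, a word that no label explains. The series concerns m6A-mediated TGF-beta-SMAD signalling, and no cytokine or drug treatment is named for either genotype. The 6 knockdown columns carry a further number, 3 or 2, which no label explains either. They are called set 3 and set 2 here, with 3 columns each, and were compared separately with the 3 puro columns. The labels do not say whether a set is a different hairpin, a clone or a pool. Nor do they say that columns are separate cultures, and the p-values below therefore reflect column-to-column spread, which may be technical.

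TNF superfamily ligands are mostly trimeric membrane proteins, many of which are also shed, and they signal by clustering receptors on the same or a neighbouring cell. Several receptors with a death domain recruit FADD or TRADD and can start apoptosis through caspase-8. Receptors without one recruit TRAF proteins and activate NF-kB and MAP kinases, though such activation is not confined to them. Decoy receptors bind ligand and lack a working signalling tail. Many ligands and receptors of the family were first studied in lymphocytes, but carcinomas transcribe several of them, and CD70 is known to be high in clear cell renal carcinoma.

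The columns held between 33821216 counts (puro replicate 2) and 47470019 counts (set 3 replicate 3). The targeted gene IGF2BP2 had 34.5, 31.1 and 35.4 CPM (counts scaled to a common library size by TMM factors) in set 3 and 25.2, 23.5 and 23.1 CPM in set 2, against 74.8, 76.5 and 79.0 CPM in puro. Its log2 fold change was -1.19 in set 3 and -1.68 in set 2, and set 3 lay above set 2 by 0.49 (edgeR adjusted p = 3.19e-06), so set 3 retained more of the transcript. All 6 renal epithelial markers were detected, with a summed level of 6365 to 6818 CPM in set 3, 6484 to 6650 CPM in set 2 and 5002 to 5352 CPM in puro. Most of this sum was VIM (mean 4760 CPM), followed by KRT8 (721 CPM), so the sum mainly reflects VIM. Lymphocyte markers were near 0: 8 T and NK cell genes summed to 0.400 to 0.733 CPM, 0.286 to 0.415 CPM and 0.137 to 0.355 CPM in the same order, and 4 B cell genes to at most 0.350 CPM in any column. Of 6 myeloid genes, TYROBP and AIF1 had no count, and the list summed to 4.01 to 4.92 CPM in set 3, 9.62 to 12.4 CPM in set 2 and 9.05 to 12.3 CPM in puro, most of it CSF1R. Endothelial genes summed to 0.884 to 1.49 CPM, 2.00 to 3.04 CPM and 2.28 to 2.75 CPM, and fibroblast genes to 6.88 to 7.68 CPM, 3.97 to 4.59 CPM and 7.39 to 9.15 CPM, in set 3, set 2 and puro. The part of these lists in the results below was not tested. In bulk RNA, fewer cells with a transcript and less of it per cell cannot be told apart.

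In this renal line, 29 of the 46 members had enough counts to be tested and the other 17 had too few. The 29 comprised 9 ligands, 7 death domain receptors, 3 decoy receptors and 10 TRAF-binding receptors. The untested ligands were FASLG, the ligand of FAS, with at most 11 counts in a column, the B cell survival factor TNFSF13B (18), TNFSF18 (6), TNFSF15 (12), CD40LG (3), TNFSF8 (3) and TNFSF14 (2), which signal to or from T cells, and the osteoclast factor TNFSF11 (2). The readthrough gene TNFSF12-TNFSF13 had no count. The untested receptors were the B cell receptors TNFRSF17 (4) and TNFRSF13B (4), the T cell receptors TNFRSF8 (3), TNFRSF18 (8) and TNFRSF4 (10), the second TNF receptor TNFRSF1B (1), the soluble decoy TNFRSF6B (10) and the ectodysplasin receptor EDAR (5). Of the receptors of TNF itself, TNFRSF1A was thus the one with enough counts to be tested.

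A few transcripts made up most of the family. Per gene length, on the deposited FPKM scale, 12 members reached at least 10 FPKM in puro. The highest was TNFRSF12A, the receptor of TWEAK (Fn14), at 320.4 ± 24.6 FPKM in set 3, 417 ± 2.59 FPKM in set 2 and 317 ± 13.3 FPKM in puro (SD, n = 3 each). In puro it was followed by TNFSF10, which encodes the death ligand TRAIL, at 185 ± 11.4 FPKM and CD70, the ligand of CD27, at 157 ± 4.53 FPKM. In both knockdown sets this order was turned round: CD70 had 185 ± 13.4 FPKM in set 3 and 181 ± 3.89 FPKM in set 2, and TNFSF10 had 75.2 ± 5.87 FPKM and 127 ± 3.496 FPKM. TNFRSF1A, TNFSF9 and LTBR came next in every arm, with ranges that overlapped a neighbour in puro and in set 3. TNFRSF9, eighth in puro at 18.9 ± 1.06 FPKM, stood at 4.64 ± 0.0668 FPKM in set 3 and 4.56 ± 0.294 FPKM in set 2. As a share of the summed ligand FPKM, CD70 took 57.5 ± 1.60% in set 3, 48.6 ± 0.653% in set 2 and 38.1 ± 1.15% in puro, and TNFSF10 took 23.5 ± 2.97%, 34.03 ± 0.768% and 44.8 ± 1.63%. These shares were formed after the levels were seen and are given as a description.

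**Figure D1:**
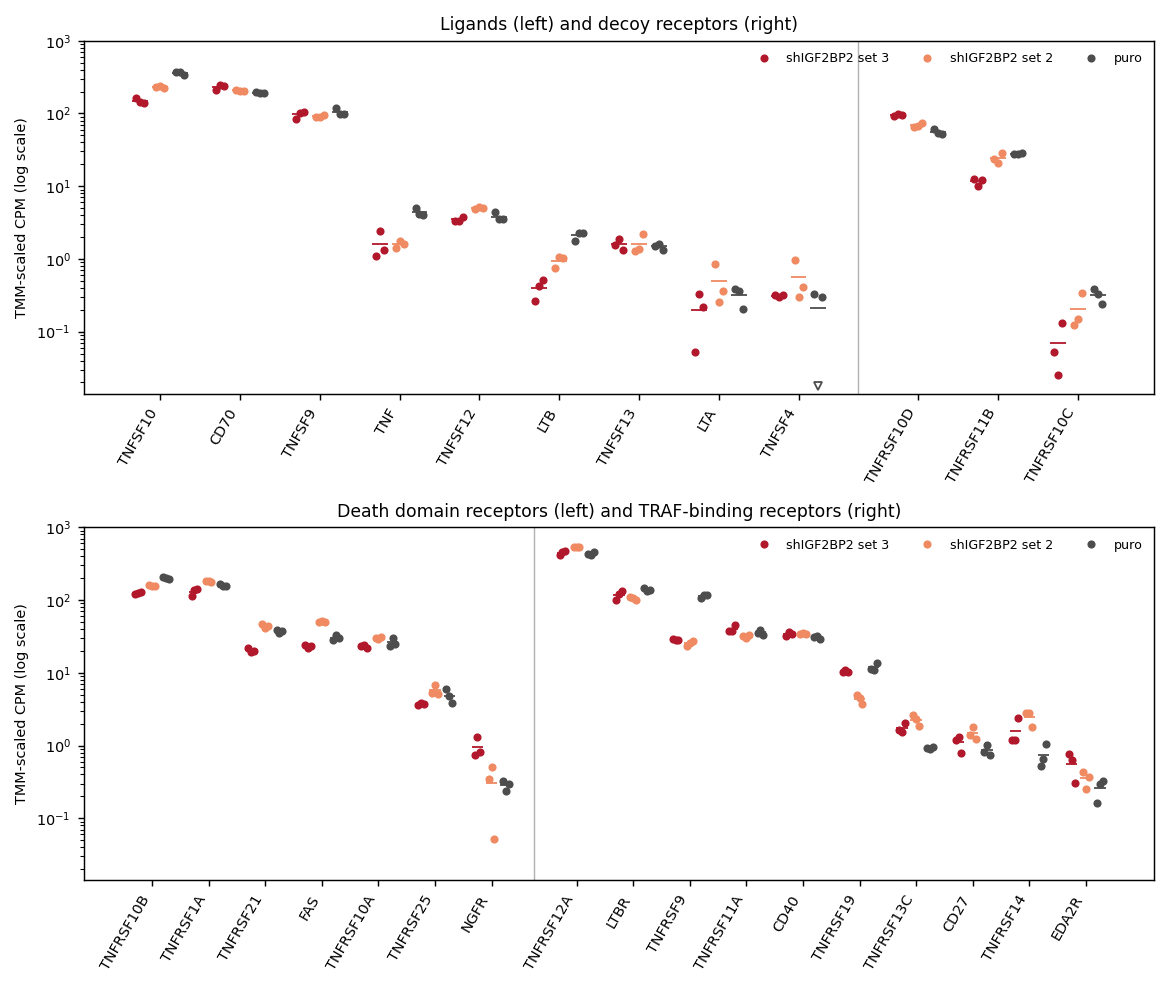
TMM-scaled CPM on a log10 axis for the 29 tested members, 1 point per column, with set 3, set 2 and puro side by side and lines at the arm means; the members are grouped into ligands, death domain, decoy and TRAF-binding receptors, and an open triangle at the bottom marks a column with 0 counts (TNFSF4 in puro). TNFRSF12A lies highest in all 3 arms, and in puro the mean of TNFRSF10B (200 CPM) lies slightly above that of CD70 (193 CPM). The puro points of TNFRSF9 (106 to 117 CPM) stand apart from the points of both sets (23.6 to 28.8 CPM).

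Members moved in both directions. In set 3, 5 of the 29 tested members were higher and 11 lower than in puro by the edgeR quasi-likelihood test at a false discovery rate (FDR) of 0.05, that is 17.2% and 37.9%, against 28.0% and 27.6% of all 13346 tested genes. In set 2, 9 were higher and 8 lower, 31.0% and 27.6%, against 30.0% and 29.9% of all tested genes, shares near the background. The median log2 fold change of the tested members was -0.19 in set 3 and 0.17 in set 2, with medians over all tested genes of 0.00403 and 0.00595. Both sets were set against the same puro columns, so the 2 comparisons are not independent. Between the sets, set 3 exceeded set 2 in 5 members and lay below it in 11, 17.2% and 37.9%, against 29.8% and 30.8% of all tested genes, and the median log2 difference was -0.37, against -0.02 over all tested genes. These shares cover only members that passed the filter on low counts and therefore do not describe the family as a whole, and whether they differ from those of other genes was not tested. Without set 2 replicate 1 the 9 higher members of set 2 became 5, and without set 3 replicate 2 the 5 members higher in set 3 than in set 2 became 3.

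**Figure D2:**
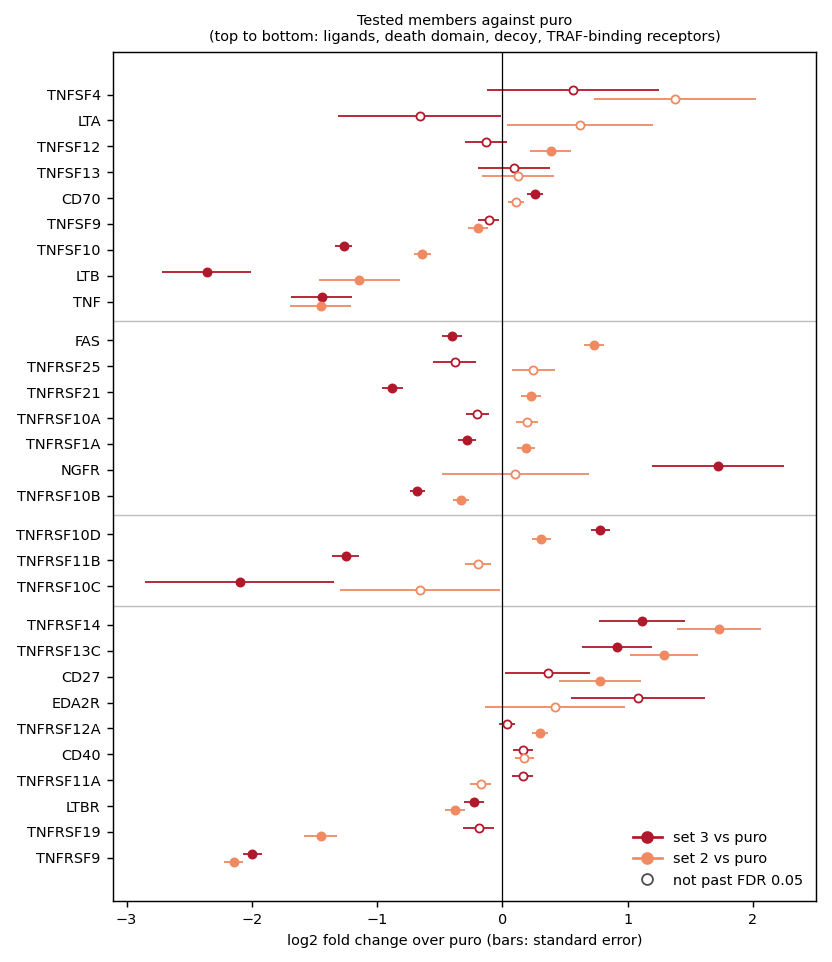
Log2 fold change over puro for the 29 tested members in set 3 (upper point of each pair) and set 2 (lower point), with bars for the standard error; filled points passed the edgeR test at an FDR of 0.05 and open points did not. TNFRSF9, TNF, LTB and TNFSF10 lie to the left in both sets, TNFRSF14, TNFRSF13C and TNFRSF10D to the right in both, and FAS, TNFRSF21 and TNFRSF1A lie on opposite sides of 0.

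Among the ligands, TNFSF10, TNF and LTB were lower in both sets, and CD70 was higher in set 3. TNFSF10 encodes TRAIL, which triggers apoptosis through the receptors TNFRSF10A and TNFRSF10B. It had 164, 145 and 139.5 CPM in set 3 and 232, 236 and 226 CPM in set 2, against 369, 375 and 337 CPM in puro, and the 3 arms did not overlap. Its log2 fold change was -1.27 in set 3 (SE 0.07, edgeR adjusted p = 1.17e-14) and -0.64 in set 2 (SE 0.07, edgeR adjusted p = 5.77e-09). The difference between the sets, set 3 over set 2, was -0.63 (edgeR adjusted p = 8.77e-09).

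TNF, the founding cytokine of the family, and LTB, the membrane anchor of the lymphotoxin heterotrimer, were scarce. TNF had 1.10, 2.40 and 1.34 CPM in set 3 and 1.41, 1.77 and 1.61 CPM in set 2, against 4.99, 4.18 and 3.99 CPM in puro. The sets overlapped each other, and every knockdown column lay below every puro column. The log2 fold changes were -1.44 (SE 0.25, edgeR adjusted p = 1.51e-05) in set 3 and -1.45 (SE 0.25, edgeR adjusted p = 1.19e-05) in set 2. LTB had 0.262, 0.426 and 0.518 CPM in set 3, 0.756, 1.05 and 1.04 CPM in set 2 and 1.75, 2.30 and 2.25 CPM in puro, 3 ranges that did not overlap. It fell in set 3 (log2 fold change -2.36, SE 0.36, edgeR adjusted p = 2.61e-06) and in set 2 (-1.14, SE 0.32, edgeR adjusted p = 0.00337). LTA, the soluble lymphotoxin that pairs with LTB, had at most 0.854 CPM in any column and did not pass the edgeR test (adjusted p = 0.406 in set 3 and 0.37 in set 2).

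CD70, a costimulatory ligand, had 213, 244 and 235 CPM in set 3 and 212, 204 and 207 CPM in set 2, against 199.6, 188 and 191 CPM in puro. The arms did not overlap. The log2 fold change was 0.26 in set 3 (SE 0.06, edgeR adjusted p = 0.00117) and 0.10 in set 2, where it did not pass (edgeR adjusted p = 0.163). The difference between the sets (0.15, edgeR adjusted p = 0.0384) was lost without set 3 replicate 2 (0.189), set 3 replicate 3 (0.0911) or any single set 2 column (0.0523 to 0.117). With limma on log2 FPKM, CD70 did pass in set 2 (0.20, adjusted p = 0.0108 with either pseudocount). There the difference of CD70 between the sets was 0.027 and 0.028 (limma adjusted p = 0.712 and 0.715). It was kept in 6 of 14 alternatives. The neighbour of CD70, TNFSF9, the ligand of TNFRSF9 (4-1BB), had 84.6, 100 and 106 CPM in set 3, 89.6, 89.9 and 94.8 CPM in set 2 and 118, 98.1 and 98.7 CPM in puro. Set 3 overlapped both other arms. The call of TNFSF9 in set 2 (log2 fold change -0.20, edgeR adjusted p = 0.039) was lost without puro replicate 1 (0.278), without set 2 replicate 1 (0.0987) and without set 2 replicate 2 (0.105). In set 3 it did not pass (log2 fold change -0.11, edgeR adjusted p = 0.254).

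TNFSF12, which encodes TWEAK, the ligand of TNFRSF12A, had 3.35, 3.33 and 3.796 CPM in set 3, 4.83, 5.24 and 4.94 CPM in set 2 and 4.41, 3.55 and 3.52 CPM in puro. It was called higher in set 2 (log2 fold change 0.38, edgeR adjusted p = 0.0436), but this call was lost without any single set 2 column or without puro replicate 2 or 3 (edgeR adjusted p = 0.0648 to 0.142), and kept in 6 of 14 alternatives. TNFSF13, the B cell factor APRIL, had 1.54, 1.88 and 1.34 CPM in set 3, 1.27, 1.39 and 2.21 CPM in set 2 and 1.51, 1.61 and 1.33 CPM in puro, with overlapping arms and no call. TNFSF4, the OX40 ligand, had 0.314, 0.300 and 0.324 CPM, 0.951, 0.299 and 0.416 CPM and 0.329, 0 and 0.296 CPM in the same order and did not pass either. For TNFSF4 puro replicate 2 held no count. Without set 2 replicate 2, TNFSF4 was called higher in set 2 (edgeR adjusted p = 0.0436), and it passed there in 3 of 14 alternatives. TNFSF12 and TNFSF13 lie side by side on chromosome 17 and are both overlapped by the readthrough gene, which had no count in any column. How reads on the shared stretches were assigned is not given in the sources used here.

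The largest change of any tested member in set 2 was the fall of TNFRSF9, and in set 3 only LTB and TNFRSF10C, both far scarcer, had a lower log2 fold change. TNFRSF9 encodes 4-1BB, a costimulatory receptor of activated T cells that recruits TRAF1 and TRAF2. It had 28.8, 27.9 and 28.0 CPM in set 3 and 23.6, 25.6 and 27.1 CPM in set 2, against 106, 116 and 117 CPM in puro. The 6 knockdown columns lay far below the puro columns, and the sets did not overlap each other but differed by only 0.15 on the log2 scale (edgeR adjusted p = 0.0911). The log2 fold change was -1.998 in set 3 (SE 0.08, edgeR adjusted p = 6.08e-18) and -2.15 in set 2 (SE 0.08, edgeR adjusted p = 1.76e-18). T and NK cell markers were near 0 in every arm and not higher in puro, as given above. Their part in the fall of TNFRSF9 was not tested.

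The promoters of 3 members that moved in both sets are shown because they hold letters that match the NF-kB consensus, a motif of many TNF-responsive genes. Each runs from 250 bases before to 50 after the RefSeq start (GRCh38.p14), 5′ to 3′ on the gene's strand, with motif matches in capitals. TNFRSF9 and LTB were lower in both sets, and TNFRSF14 was higher in both.
TNFRSF9: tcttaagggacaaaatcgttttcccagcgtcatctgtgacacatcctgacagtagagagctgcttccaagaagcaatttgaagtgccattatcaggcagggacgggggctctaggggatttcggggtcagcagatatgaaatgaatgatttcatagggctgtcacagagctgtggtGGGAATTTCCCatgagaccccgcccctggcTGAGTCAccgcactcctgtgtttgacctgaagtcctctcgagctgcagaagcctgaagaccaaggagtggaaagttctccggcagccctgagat
LTB: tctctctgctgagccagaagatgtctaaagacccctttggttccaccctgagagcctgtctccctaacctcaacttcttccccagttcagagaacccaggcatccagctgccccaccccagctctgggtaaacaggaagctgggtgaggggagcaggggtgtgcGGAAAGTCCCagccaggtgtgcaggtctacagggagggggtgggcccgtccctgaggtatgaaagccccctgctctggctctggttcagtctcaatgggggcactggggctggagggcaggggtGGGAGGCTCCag
TNFRSF14: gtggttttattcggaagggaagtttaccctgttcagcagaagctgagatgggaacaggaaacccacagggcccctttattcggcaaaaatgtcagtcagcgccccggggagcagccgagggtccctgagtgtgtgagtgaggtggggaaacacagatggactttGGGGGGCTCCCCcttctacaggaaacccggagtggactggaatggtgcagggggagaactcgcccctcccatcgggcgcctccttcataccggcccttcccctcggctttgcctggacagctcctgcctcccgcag
The windows are chr1:7940790-7941089 on the minus strand for TNFRSF9, chr6:31582376-31582675 on the minus strand for LTB and chr1:2556121-2556420 on the plus strand for TNFRSF14. The GENCODE 29 spans of TNFRSF9 and TNFRSF14 reach upstream of their windows, so the starts of both differ between annotations. In TNFRSF9 the capitals mark overlapping NF-kB matches on GGGAATTTCCC, which begin 74 and 73 bases before the start, and the AP-1 word TGAGTCA, 44 bases before it. In LTB they mark GGAAAGTCCC, 86 bases before the start, and GGGAGGCTCC, 38 bases after it. In TNFRSF14 they mark 3 overlapping matches on GGGGGGCTCCCC. Both strands were searched for the NF-kB consensus and for the AP-1 word TGANTCA. Of 18 tested members with a promoter in the RefSeq table, 4 (22.2%: TNFRSF14, TNFRSF25, TNFRSF9 and LTB) held an NF-kB match and 4 (22.2%: TNFRSF9, FAS, CD27 and EDA2R) an AP-1 match, against 11.3% and 7.71% of all 35116 promoters of the table. TNF, TNFSF10 and LTBR, which were also called in the same direction in both sets, held no NF-kB match in this window. Neither did FAS, TNFRSF21 and TNFRSF1A, which were called in both sets in opposite directions. These matches describe letters only, and no binding was measured here.

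TRAIL has 4 membrane receptors, 2 of them with a death domain and 2 decoys, and the secreted decoy TNFRSF11B, described further on, also binds it. TNFRSF10B, which encodes the death receptor DR5, had 123, 124 and 129 CPM in set 3 and 163, 158 and 157 CPM in set 2, against 205, 202 and 195 CPM in puro, with no overlap between arms. It fell by 0.68 on the log2 scale in set 3 (SE 0.06, edgeR adjusted p = 3.39e-10) and by 0.33 in set 2 (SE 0.06, edgeR adjusted p = 3.68e-05). TNFRSF10D, a decoy with a truncated death domain, stood in the opposite order, with 92.2, 97.0 and 95.8 CPM in set 3 and 64.7, 68.0 and 73.1 CPM in set 2, against 60.7, 53.4 and 51.7 CPM in puro. It rose by 0.78 in set 3 (SE 0.07, edgeR adjusted p = 8.9e-10) and by 0.31 in set 2 (SE 0.07, edgeR adjusted p = 0.000733). The arms did not overlap here either, and set 3 exceeded set 2 (log2 difference 0.47, edgeR adjusted p = 3.47e-06).

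The other TRAIL receptors behaved differently. TNFRSF10A, the death receptor DR4, had 23.2, 24.0 and 21.6 CPM in set 3, 29.8, 29.5 and 31.4 CPM in set 2 and 23.5, 30.3 and 25.2 CPM in puro. Both sets overlapped puro and did not pass the edgeR test (adjusted p = 0.0637 and 0.0641), while set 3 was lower than set 2 (log2 difference -0.40, edgeR adjusted p = 0.000445). For TNFRSF10A set 3 did pass, lower than puro, without puro replicate 1 (edgeR adjusted p = 0.0169), and set 2, higher than puro, without puro replicate 2 (0.00638). With limma on log2 FPKM, set 2 passed with pseudocounts of 1 and 0.1 (adjusted p = 0.0108 and 0.00939) and set 3 with 0.1 (0.0479). Of 14 alternatives, TNFRSF10A passed in 2 for set 3 and in 3 for set 2. TNFRSF10C, a decoy anchored to the membrane by a lipid, was near the filter with at most 0.384 CPM, and reached the filter's level of 0.258 CPM in 0 set 3 columns, 1 set 2 column and 2 puro columns. Its call in set 3 (log2 fold change -2.10, edgeR adjusted p = 0.0196) was lost without set 3 replicate 1 (0.0618), set 3 replicate 2 (0.0912), puro replicate 1 (0.0733) or puro replicate 2 (0.0504). Of the summed FPKM of the 4 membrane receptors, which leaves out TNFRSF11B, TNFRSF10D took 40.3 ± 0.452% in set 3, 27.5 ± 1.38% in set 2 and 20.6 ± 1.40% in puro (SD, n = 3 each). TNFRSF10B took 46.9 ± 0.905%, 56.4 ± 1.74% and 66.2 ± 0.682%. The 4 genes lie within 205.0 kb on chromosome 8 and are paralogs, and how reads matching several of them were counted is not given in the sources used here.

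**Figure D3:**
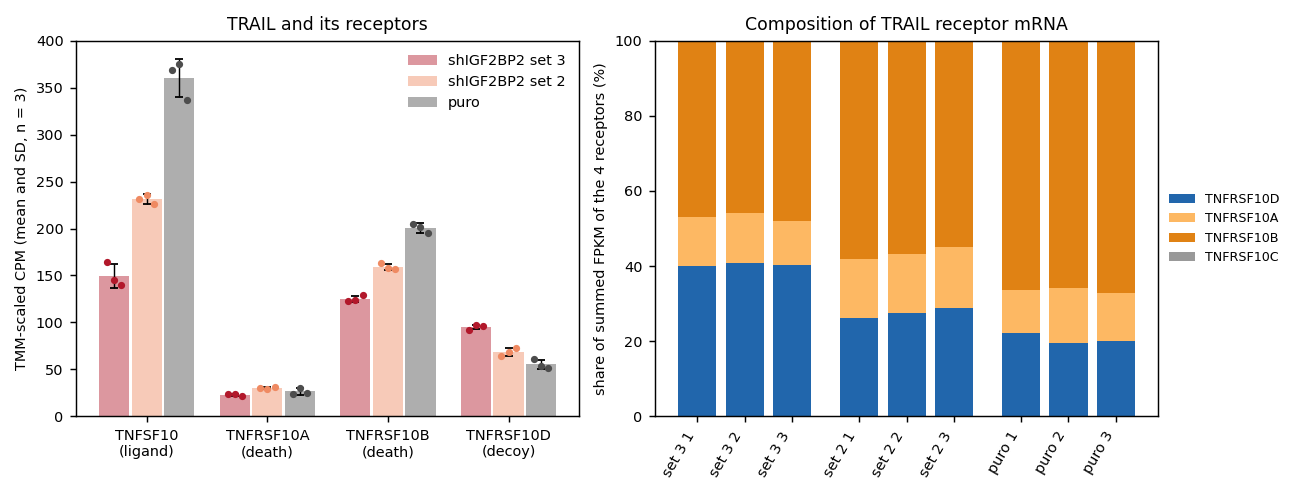
Left, TMM-scaled CPM of TRAIL (TNFSF10) and of 3 of its receptors in set 3, set 2 and puro, with bars for the mean of 3 columns, whiskers for the SD and a point per column. Right, the share of the summed FPKM of the 4 TRAIL receptors in each column, in percent; the TNFRSF10D share is 39.9 to 40.8% in set 3, 26.0 to 28.8% in set 2 and 19.6 to 22.2% in puro, and the TNFRSF10C share is too small to see.

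Other death domain receptors separated the 2 knockdown sets. FAS, the receptor of Fas ligand, had 24.4, 21.6 and 23.1 CPM in set 3 and 50.7, 51.3 and 49.8 CPM in set 2, against 28.3, 33.0 and 30.2 CPM in puro, and the arms did not overlap. It was lower in set 3 (log2 fold change -0.40, SE 0.08, edgeR adjusted p = 0.000123) and higher in set 2 (0.73, SE 0.08, edgeR adjusted p = 8.61e-09). The difference of -1.13 between the sets had an edgeR adjusted p of 1.94e-12. FAS overlaps ACTA2 on the other strand, and strand use in counting is not given in the sources used here.

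TNFRSF21, the death receptor DR6, had 21.7, 19.1 and 20.1 CPM in set 3, 46.5, 40.8 and 43.7 CPM in set 2 and 38.5, 35.8 and 37.6 CPM in puro. It fell by 0.88 in set 3 (edgeR adjusted p = 5.92e-10) and was called higher by 0.23 in set 2 (edgeR adjusted p = 0.015), the second call being lost without set 2 replicate 1 (0.0913) or puro replicate 2 (0.0597). TNFRSF1A, the main receptor of soluble TNF, had 113, 139.7 and 139.8 CPM in set 3, 184, 182 and 177 CPM in set 2 and 165, 155 and 156 CPM in puro, again with no overlap. Its log2 fold change was -0.28 in set 3 (edgeR adjusted p = 0.00178) and 0.19 in set 2 (edgeR adjusted p = 0.0294). The call in set 2 was lost without set 2 replicate 1 or 2 and without puro replicate 2 or 3 (edgeR adjusted p = 0.0743 to 0.095).

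TNFRSF25, the death receptor DR3, had 3.59, 3.85 and 3.75 CPM in set 3, 5.32, 6.90 and 5.07 CPM in set 2 and 5.92, 4.81 and 3.84 CPM in puro. Neither set passed against puro (edgeR adjusted p = 0.0646 and 0.211), and set 3 was lower than set 2 by 0.63 on the log2 scale (edgeR adjusted p = 0.00232). Without puro replicate 3, set 3 also passed against puro (-0.52, edgeR adjusted p = 0.0191). NGFR, the p75 neurotrophin receptor, had 0.733, 1.33 and 0.820 CPM in set 3, 0.341, 0.513 and 0.0520 CPM in set 2 and 0.329, 0.239 and 0.296 CPM in puro. It was called higher in set 3 (log2 fold change 1.72, SE 0.53, edgeR adjusted p = 0.00723), and this rested on set 3 replicate 2, without which the edgeR adjusted p was 0.0597 against puro and 0.0655 against set 2 (with it, 0.0076). Of the 7 tested death domain receptors, 1 was higher and 4 lower in set 3 than in puro, where 28.0% and 27.6% of all tested genes passed. In set 2, 3 were higher and 1 lower than in puro, where 30.0% and 29.9% of all tested genes passed. Set 3 exceeded set 2 in 1 of the 7 (NGFR) and lay below it in 6, where 29.8% and 30.8% of all tested genes passed.

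TNFRSF11B, osteoprotegerin, a secreted decoy for the osteoclast factor TNFSF11 and for TRAIL, had 12.7, 10.2 and 12.2 CPM in set 3 and 23.7, 21.0 and 28.4 CPM in set 2, against 27.5, 27.3 and 28.8 CPM in puro. Set 3 lay below both other arms, which overlapped each other. The log2 fold change was -1.25 in set 3 (SE 0.11, edgeR adjusted p = 1.19e-10) and -0.19 in set 2 (SE 0.10, edgeR adjusted p = 0.103), and the sets differed by -1.06 (edgeR adjusted p = 2.25e-09). Without set 2 replicate 3, set 2 also passed (-0.32, edgeR adjusted p = 0.0141). TNFRSF11A, which encodes RANK, the receptor of TNFSF11, had 37.5, 38.0 and 44.95 CPM in set 3, 32.4, 30.4 and 32.8 CPM in set 2 and 35.0, 39.3 and 33.6 CPM in puro. It did not pass against puro in either set and was higher in set 3 than in set 2 by 0.34 (edgeR adjusted p = 0.00121). That difference did not pass with limma on log2 FPKM (adjusted p = 0.0968 and 0.0941 with pseudocounts of 1 and 0.1). Against puro, set 3 did pass without set 3 replicate 1 (edgeR adjusted p = 0.0363) or puro replicate 2 (0.0392). Set 2 passed, lower than puro, with only the 6 columns compared (edgeR adjusted p = 0.0481).

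Of the abundant TRAF-binding receptors, TNFRSF12A had 411, 459 and 469 CPM in set 3, 529, 536 and 537 CPM in set 2 and 430.2, 416.5 and 457 CPM in puro. Set 2 lay above both other arms, with a log2 fold change of 0.30 over puro (SE 0.06, edgeR adjusted p = 0.000247), against 0.04 in set 3 (edgeR adjusted p = 0.623). LTBR, the lymphotoxin beta receptor that activates the alternative NF-kB pathway, had 102, 121 and 132 CPM in set 3, 112, 107 and 100.4 CPM in set 2 and 145, 133 and 137 CPM in puro. It was lower in set 3 (log2 fold change -0.23, edgeR adjusted p = 0.0162) and in set 2 (-0.38, edgeR adjusted p = 0.000158). The call in set 3 was lost without set 3 replicate 1 (edgeR adjusted p = 0.104) or puro replicate 1 (0.0641). CD40, a receptor of antigen-presenting cells, had 32.2, 36.0 and 34.4 CPM in set 3, 33.7, 35.5 and 34.1 CPM in set 2 and 30.8, 31.9 and 28.9 CPM in puro. Every knockdown column of CD40 lay above every puro column, but neither set passed the edgeR test (adjusted p = 0.0762 and 0.0557). Set 3 did pass without set 3 replicate 1 (edgeR adjusted p = 0.0282), and set 2 without puro replicate 2 (0.0459). Set 2 also passed with only the 6 columns compared (edgeR adjusted p = 0.0457). With limma on log2 FPKM its adjusted p was 0.00268 and 0.00249 with pseudocounts of 1 and 0.1. Of 14 alternatives, CD40 passed in 1 for set 3 and in 4 for set 2.

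TNFRSF19, a receptor of the family also called TROY, had 10.3, 11.0 and 10.2 CPM in set 3, 4.93, 4.49 and 3.72 CPM in set 2 and 11.2, 11.0 and 13.7 CPM in puro. Set 2 lay below both other arms, and set 3 overlapped puro by a narrow margin. The log2 fold change was -0.19 in set 3 (SE 0.12, edgeR adjusted p = 0.202) and -1.45 in set 2 (SE 0.13, edgeR adjusted p = 3.45e-10). The difference between the sets, set 3 over set 2, was 1.26 (edgeR adjusted p = 4.3e-09).

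Of the receptors best known from lymphocytes and scarce in these libraries, TNFRSF14 and TNFRSF13C were called higher in each set. TNFRSF14, the receptor HVEM, had 1.18, 1.20 and 2.42 CPM in set 3 and 2.80, 2.78 and 1.82 CPM in set 2, against 0.521, 0.657 and 1.06 CPM in puro, and both sets lay above puro. The log2 fold change was 1.11 in set 3 (SE 0.34, edgeR adjusted p = 0.00751) and 1.73 in set 2 (SE 0.34, edgeR adjusted p = 7.42e-05). Set 3 replicate 3 lay within the range of set 2, and without it the call in set 3 was lost (log2 fold change 0.68, edgeR adjusted p = 0.113). TNFRSF13C, the BAFF receptor of B cells, had 1.65, 1.53 and 2.05 CPM in set 3, 2.61, 2.31 and 1.87 CPM in set 2 and 0.932, 0.896 and 0.946 CPM in puro. It rose by 0.91 in set 3 (SE 0.28, edgeR adjusted p = 0.00631) and by 1.29 in set 2 (SE 0.27, edgeR adjusted p = 0.000198). The list of B cell genes summed to at most 0.350 CPM in any column, and its part in this result was not tested.

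CD27, the receptor of CD70, had 1.20, 1.33 and 0.798 CPM in set 3, 1.41, 1.77 and 1.22 CPM in set 2 and 0.822, 1.02 and 0.739 CPM in puro. It was called higher in set 2 (log2 fold change 0.78, edgeR adjusted p = 0.0447), a call lost without set 2 replicate 1 or 2 or puro replicate 1 or 3 (edgeR adjusted p = 0.0566 to 0.154), and did not pass in set 3 (edgeR adjusted p = 0.379). CD27 overlaps TAPBPL and the antisense gene CD27-AS1. EDA2R, a receptor of ectodysplasin, had 0.759, 0.626 and 0.302 CPM in set 3, 0.439, 0.257 and 0.364 CPM in set 2 and 0.164, 0.299 and 0.325 CPM in puro and did not pass in either set. Set 3 did pass without set 3 replicate 3 (edgeR adjusted p = 0.0447). Of 2 superfamily genes whose symbols fall outside the rule, the ligand EDA had at most 12 counts and was not tested. The receptor RELT had 33.6, 40.7 and 35.4 CPM in set 3, 31.6, 34.1 and 31.4 CPM in set 2 and 35.5, 25.4 and 29.4 CPM in puro, with a log2 fold change of 0.28 in set 3 (edgeR adjusted p = 0.017) and 0.10 in set 2 (edgeR adjusted p = 0.37).

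Set side by side per gene length, partners differed widely in level. The receptor TNFRSF12A had 317 ± 13.3 FPKM in puro and its ligand TNFSF12 had 1.64 ± 0.215 FPKM. For CD70 and CD27 the abundant partner was the ligand, at 157 ± 4.53 FPKM against 0.679 ± 0.116 FPKM in puro. For 4-1BB the ligand TNFSF9 exceeded the receptor TNFRSF9 in every arm, at 57.3 ± 7.12 and 4.64 ± 0.0668 FPKM in set 3, 58.9 ± 1.53 and 4.56 ± 0.294 FPKM in set 2, and 63.1 ± 6.61 and 18.9 ± 1.06 FPKM in puro. FAS was transcribed in each arm while its ligand FASLG was not testable there.

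Members that neighbour each other in the genome did not always share a call. Differences in effect between neighbours were not tested, nor was how often other neighbouring genes differ in call. On chromosome 6, LTA, TNF and LTB lie within 10.5 kb (31572054 to 31582522, GRCh38, GENCODE 29). TNF and LTB were lower in both sets, whereas LTA passed in neither, at -0.66 on the log2 scale in set 3 and 0.62 in set 2. On chromosome 12, TNFRSF1A, LTBR and CD27 lie within 123.0 kb (6328757 to 6451718). Here set 2 had TNFRSF1A and CD27 called higher and LTBR called lower, and set 3 had TNFRSF1A and LTBR called lower. On chromosome 19, TNFSF9, CD70 and the untested TNFSF14 lie within 139.6 kb (6530999 to 6670588), with CD70 called higher and TNFSF9 not called in set 3, and TNFSF9 called lower and CD70 not called in set 2. TNFRSF9 spans 7915894 to 7943165 on the minus strand of chromosome 1, TNFSF10 spans 172505508 to 172523507 on the minus strand of chromosome 3, and FAS spans 88990582 to 89015785 on the plus strand of chromosome 10. Several members overlap other protein-coding genes: TNFRSF25 lies across PLEKHG5 and ESPN, TNFRSF10B across RHOBTB2, LTBR across SCNN1A and TNFRSF12A across CLDN6, so their counts may hold reads of those genes.

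When the 2 knockdown columns with the same last number were summed into 1 sample, giving 3 shIGF2BP2 against 3 puro samples, 30 members were tested. Each sum joins a set 2 and a set 3 column, so the spread of the sums leaves out the difference between the sets. Same-numbered columns showed no pairing, as given further below. By edgeR, 8 were higher and 10 lower, 26.7% and 33.3%, against 28.8% and 29.2% of all 13518 tested genes, with a median of 0.041 against 0.00433 over all genes. The falls were led by TNFRSF9 (-2.08), LTB (-1.63), TNF (-1.47) and TNFSF10 (-0.93), and the rises by TNFRSF14 (1.46), TNFRSF13C (1.11), NGFR (1.11) and TNFRSF10D (0.55), all log2 fold changes. LTBR, TNFRSF10B, TNFRSF11B, TNFRSF19, TNFRSF21 and TNFSF9 were also called lower, and CD40, CD70, FAS and TNFRSF12A higher. The call of NGFR (edgeR adjusted p = 0.0343) was lost without shIGF2BP2 replicate 2 (0.186), puro replicate 2 (0.0833) or puro replicate 3 (0.0673). The call of CD40 was lost without shIGF2BP2 replicate 2 (0.184) or 3 (0.0964) or puro replicate 3 (0.167), and that of TNFSF9 without shIGF2BP2 replicate 1 (0.244) or 2 (0.0998) or puro replicate 1 (0.287). FASLG, tested only here, did not pass (edgeR adjusted p = 0.735). Of the 3 members called in opposite directions in the sets, FAS was called higher after summing (0.27) and TNFRSF21 lower (-0.23), while TNFRSF1A did not pass, with a summed log2 fold change of -0.037 (edgeR adjusted p = 0.557). If the first number of the column names is read as the sample, 2 knockdown samples remain. Then 3 members were called by edgeR, namely TNFRSF9, TNFSF10 and TNF, all lower, and 0 were higher (3 higher and 6 lower at an unadjusted p under 0.05). DESeq2 called 3 higher and 5 lower under that reading, and limma-voom 0 and 3.

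Downstream of the receptors, a list of 46 signalling components (TRAF adaptors, death domain adaptors, caspases, NF-kB subunits and their inhibitors) was chosen with earlier results of these data known, and 45 were tested. In set 3, 6 were higher and 19 lower than in puro (13.3% and 42.2%, against 28.0% and 27.6% of all tested genes), with a median log2 fold change of -0.099 against 0.00403 over all tested genes. In set 2, 16 were higher and 13 lower (35.6% and 28.9%, against 30.0% and 29.9%), with a median of 0.035 against 0.00595. NFKBIA, which encodes the inhibitor IkB alpha and is itself an NF-kB target, fell by 1.64 in set 3 (SE 0.07, edgeR adjusted p = 1.48e-16) and by 1.33 in set 2 (SE 0.07, edgeR adjusted p = 6.72e-15). NFKBIB, the related IkB beta, rose by 1.30 in set 3 (edgeR adjusted p = 3.93e-13) and by 1.04 in set 2 (edgeR adjusted p = 3.08e-11). The kinase subunit IKBKB rose by 0.63 in set 3 (edgeR adjusted p = 4.04e-07) and by 0.82 in set 2 (edgeR adjusted p = 3.01e-09).

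The other genes that the naming rule picked were NFKB2, the precursor of the alternative pathway, and TRAF1, the adaptor that binds 4-1BB. NFKB2 fell by 1.31 in set 3 (edgeR adjusted p = 8.75e-15) and by 0.75 in set 2 (edgeR adjusted p = 4.18e-10). TRAF1 fell by 0.52 in set 3 (edgeR adjusted p = 3.94e-06) and by 1.41 in set 2 (edgeR adjusted p = 6e-14). Between the sets, set 3 exceeded set 2 in 11 components and lay below it in 21 (24.4% and 46.7%, against 29.8% and 30.8% of all tested genes). ADAM17, the protease that sheds TNF and several receptors, and CASP8 and FADD, the core of the death-inducing complex, were picked after their values were seen. ADAM17 had a log2 fold change of -0.79 in set 3 and 0.23 in set 2, CASP8 of -0.37 and -0.09, and FADD of -0.0046 and 0.46. The difference between the sets passed the edgeR test for each (adjusted p = 4.63e-12, 0.00262 and 1.63e-06).

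**Figure D4:**
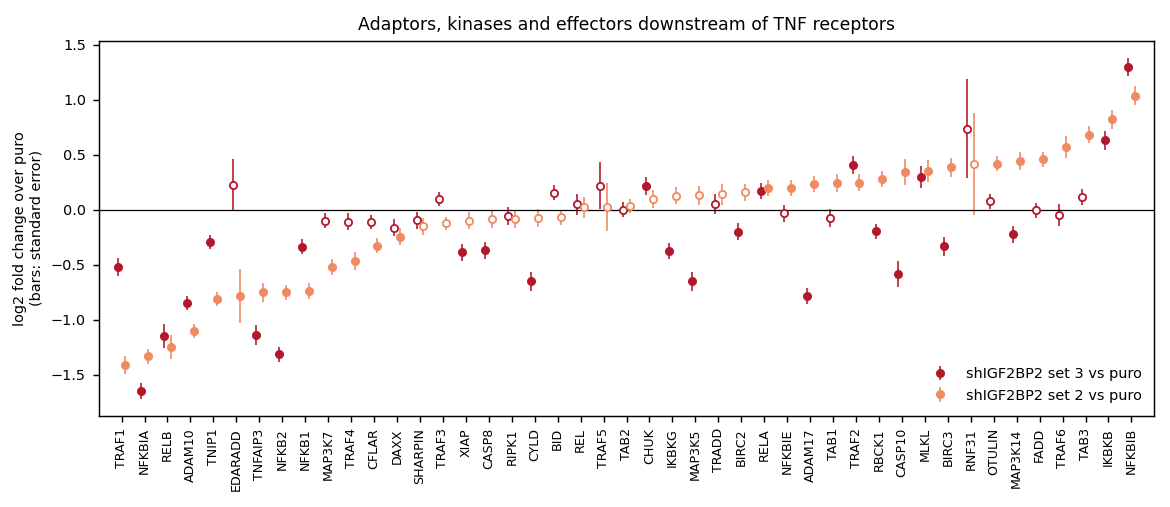
Log2 fold change over puro of the 45 tested signalling components in set 3 (left point of each pair) and set 2 (right point), ordered by the set 2 value, with bars for the standard error; filled points passed the edgeR test at an FDR of 0.05. NFKBIA lies lowest in set 3 at -1.64, and NFKBIB lies highest in both sets at 1.30 and 1.04.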

How the data were processed

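The authors deposited, for each gene symbol, raw read counts in 1 table and FPKM, which divide by gene length and library total, in another. Per the submitters' processing notes, reads were handled with fastp 0.23.2, STAR 2.7.10a, hg38, featureCounts and DESeq2. Not given in the sources used here are the annotation release, the strand setting and how multimapping reads were treated. The last number of each column name was read as the replicate.

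Counts of all 20020 genes were filtered with filterByExpr (minimum count 10, minimum total 15) and scaled by TMM factors. The test was edgeR's quasi-likelihood F test (edgeR 4.0.16 under R 4.3.3) in 1 fit of 9 columns, with Benjamini-Hochberg adjustment over all 13346 tested genes, an FDR of 0.05 and no minimum fold. A second fit summed the knockdown columns that share a last number, giving 6 samples. Standard errors were derived from the F statistic. TMM-scaled CPM compare a gene across columns, and the deposited FPKM compare genes.

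The members, the gene lists and the tests were chosen with earlier results of these data known. Named were all tested members, the untested ones by their highest count, IGF2BP2, EDA and RELT, and, of the signalling list, the 2 largest rises and falls past the FDR in each set with a mean of at least 5 CPM. ADAM17, CASP8 and FADD were added from that list after their values were seen. Alternatives were RLE size factors, no filter, DESeq2 1.42.0, limma-voom (limma 3.58.1), limma on log2 of the deposited FPKM with pseudocounts of 1 and 0.1, a replicate block, only the columns compared, leaving out each column, and the other reading of the column names. The tests were also run on simulated counts, and no result of that run is given here.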

Additional observations from a re-analysis of the deposited data

Results flagged for a closer look

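For 16 of the 29 tested members (55.2%, against 60.7% of all tested genes) the effect against puro differed between set 3 and set 2 by the edgeR test of the difference itself, given here as set 3 minus set 2 on the log2 scale. The death domain receptors contributed FAS (-1.13), TNFRSF21 (-1.10), TNFRSF25 (-0.63), TNFRSF1A (-0.47), TNFRSF10A (-0.40) and TNFRSF10B (-0.35), all lower in set 3, and NGFR (1.62), higher in set 3. The decoy receptors contributed TNFRSF11B (-1.06) and TNFRSF10D (0.47). Among ligands the difference was -1.22 for LTB, -0.63 for TNFSF10, -0.52 for TNFSF12 and 0.15 for CD70, and among TRAF-binding receptors it was 1.26 for TNFRSF19, 0.34 for TNFRSF11A and -0.26 for TNFRSF12A. The differences of CD70 and TNFRSF11A did not pass with limma on log2 FPKM, and that of CD70 was kept in 6 of 14 alternatives. The difference of NGFR, a scarce member, was kept in 13 of 14 and lost without set 3 replicate 2 (edgeR adjusted p = 0.0655). For FAS, TNFRSF21 and TNFRSF1A each set also passed the test against puro, in opposite directions, although the calls of TNFRSF21 and TNFRSF1A in set 2 were each lost when single columns were left out. For TNFSF10, TNFRSF10B, TNFRSF10D and LTB both sets passed in the same direction against the shared puro columns, and set 3 was the farther from puro. What the sets stand for is not given in the labels, so the hairpin, the clone and the handling cannot be told apart.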

How the results depend on the processing

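With 1 column left out in turn, set 3 against puro had 4 to 7 members higher and 9 to 12 lower, set 2 against puro 5 to 8 higher and 7 to 9 lower, set 3 against set 2 3 to 7 higher and 11 to 12 lower, and the summed samples 6 to 8 higher and 9 to 11 lower. On both FPKM scales 3 members were higher in set 3 than in set 2, and with a pseudocount of 0.1 the median of all genes shifted there by -0.115, to -0.136. Reading the first number as the sample left 0 members higher and 3 lower. With the replicate block, counts higher and lower were 5 and 11 in set 3, 6 and 7 in set 2 (without TNFRSF1A, CD27, TNFSF12 and TNFSF9), 4 and 11 between the sets (without CD70), and 6 and 9 in the summed samples (without NGFR, TNFSF9 and CD40). Replicate numbers did not pair the columns: deviations of same-numbered columns correlated across genes at -0.286 to 0.0934, and 2 of 6 columns between puro and set 2, 0 of 6 between puro and set 3 and 0 of 6 between the sets correlated best with their own number.

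No member that passed the test in a comparison changed sign there under any alternative run. Signs turned only for members that did not pass. Between set 3 and set 2, TNF had -0.073 under limma-voom, -0.074 and -0.17 on FPKM with pseudocounts of 1 and 0.1, -0.013 with the replicate block and -0.39 to 0.21 without single columns. CD40 had 0.00042 under DESeq2 and -0.048 to 0.031 without single columns, TNFSF13 had 0.0040 under limma-voom and -0.17 to 0.25 without single columns, and TNFSF9 had -0.045 and -0.046 on FPKM. In set 2 against puro, NGFR had -0.33 under limma-voom, -0.030 with the replicate block and -0.52 to 0.57 without single columns, LTA ranged from -0.043 to 0.94 and TNFSF13 from -0.16 to 0.27. In set 3 against puro, TNFSF13 ranged from -0.045 to 0.21. The cause was not tested. Standard errors of log2 fold changes were larger for scarce members. They were 0.061 to 0.107 above 10 CPM and 0.497 to 0.785 under 1 CPM, where 5 tested members lay.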
